A study of Rattus norvegicus with 8 samples.

Results

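The 17425 H3K36me3 regions that the authors called in unstimulated rat vascular smooth muscle cells were compared with the 16578 called after angiotensin II (AngII). They were taken as every region of the libraries labelled Control_H3K36me3_ChIPseq and AngII_H3K36me3_ChIPseq, 34003 of the 89972 regions of the series. The cells were primary cells from thoracic aortas of Sprague-Dawley rats, grown in M199 medium with fetal bovine serum. The AngII group was starved of serum overnight and received 0.1 uM AngII for 3 h. For the control group the labels give no treatment and do not mention starvation, so AngII and starvation cannot be told apart. Each condition had 1 H3K36me3, 1 H3K4me3 and 1 RNA library, so differences have no replicate check and no p-value is given. The labels do not give the number of animals, and the input libraries were not analysed here.

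H3K36me3, trimethylation of lysine 36 of histone H3, is laid down by Setd2, a methyltransferase that travels with elongating RNA polymerase II. The mark therefore fills the bodies of transcribed genes and is usually sparse at their promoters, where H3K4me3 lies. Proteins that read it restrain cryptic initiation and act in splicing and DNA methylation. AngII, a peptide hormone acting on smooth muscle through a G-protein-coupled receptor, induces early response transcription factors and growth factors.

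The loci at which the mark differed from end to end include genes whose RNA was at least 2-fold higher after AngII. The 250 bases before the RefSeq transcription start of 4 of them, matched by symbol, are printed. Whether these listed starts were the ones used in the cells was not tested. Arc, Fos, Nr4a3 and Atf3 had the same cover pattern and are named only. The sequences are RefSeq's, from assembly GRCr8, whereas the regions use rn4, so these coordinates must not be laid over the regions. Baiap2 is on the plus strand at chr10:105721306-105721555, Upp1 on the plus strand at chr14:88024420-88024669, Pdgfb on the minus strand at chr7:113438344-113438593 and Egr2 on the minus strand at chr20:21054442-21054691. Capitals mark matches to the motifs searched.
Baiap2: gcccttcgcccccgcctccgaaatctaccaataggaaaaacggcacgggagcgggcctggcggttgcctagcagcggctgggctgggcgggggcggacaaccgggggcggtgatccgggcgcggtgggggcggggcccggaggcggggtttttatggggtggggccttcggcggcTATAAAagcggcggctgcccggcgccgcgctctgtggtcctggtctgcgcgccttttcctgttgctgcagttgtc
Upp1: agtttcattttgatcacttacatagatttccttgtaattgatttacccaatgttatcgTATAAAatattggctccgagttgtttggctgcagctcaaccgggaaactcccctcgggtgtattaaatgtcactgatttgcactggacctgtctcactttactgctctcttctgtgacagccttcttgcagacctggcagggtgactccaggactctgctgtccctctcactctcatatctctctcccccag
Pdgfb: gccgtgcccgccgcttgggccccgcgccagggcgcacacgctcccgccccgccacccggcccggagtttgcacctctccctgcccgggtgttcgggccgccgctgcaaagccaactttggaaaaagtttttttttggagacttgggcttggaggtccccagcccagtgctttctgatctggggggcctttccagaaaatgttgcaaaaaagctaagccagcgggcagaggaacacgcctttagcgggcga
Egr2: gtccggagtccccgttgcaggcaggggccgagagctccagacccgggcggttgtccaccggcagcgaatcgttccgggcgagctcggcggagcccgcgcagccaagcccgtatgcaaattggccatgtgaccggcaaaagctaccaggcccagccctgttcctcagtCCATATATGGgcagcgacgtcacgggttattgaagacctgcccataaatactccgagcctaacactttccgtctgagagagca

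Both strands were searched for 4 motifs: TATAAA, TGACGTCA (the cyclic AMP response element), TGANTCA (the AP-1 site) and the CArG box, the site of serum response factor. Baiap2 holds TATAAA beginning 75 bases before the start, Upp1 holds it 192 bases before, and Egr2 holds a CArG box 83 bases before. The Pdgfb window holds none of the 4. Among 27457 RefSeq promoters the motifs were present in 13.1%, 1.70%, 6.36% and 1.50%, in the order given above. Among 53 promoters of loci with higher RNA and wider cover they were present in 8, 2, 3 and 2. These matches describe letters in a window and are not binding sites.

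Cover, the percent of a locus's listed length that lies inside regions, was computed for 12367 loci with a RefSeq accession, exactly 1 gene symbol and coordinates of their own. They carry 11258 symbols and come from 20869 loci with an accession. Most loci held the same cover in both libraries: 4274 were at 100% in both, 3568 at 0% in both, and 63.4% had identical values. Mean cover was 56.0% in control and 59.8% after AngII. Cover was at least 20 percentage points higher after AngII at 975 loci (7.88%) and at least 20 points lower at 245 loci (1.98%). A gain or a loss below means a difference past this size. Just inside the threshold, 121 loci gained 20 to 25 points, and just outside it 178 gained 15 to 20.

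The largest switches were complete. At 171 loci cover went from 0% to 100%, and at 34 from 100% to 0%, but these loci were short, with medians of 2.14 and 1.03 kb. A locus of this length lies within a few of the bins of 589 bp (control) and 548 bp (AngII) from which the regions were built. Among 8687 loci of at least 5 kb, 45 tied at a gain of 100 points, and the longest 12 were Baiap2, Slc43a2, Nr4a3, Atf3, Smco4, Fam83d, Upp1, Mdfi, Hrob, Pdgfb, Cbx7 and Adprhl1. Their lengths ran from 15.9 kb for Adprhl1 to 62.5 kb for Baiap2. RNA was at least 2-fold higher for 5 of the 12, Baiap2, Nr4a3, Atf3, Upp1 and Pdgfb.

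Baiap2 (chromosome 10, 109351200 to 109413703), which encodes the membrane-bending adaptor IRSp53, had no control region over its 62.5 kb and lay wholly within 1 AngII region of 122 kb. Its RNA stood at 1.93 FPKM in control and 16.0 after AngII, on the authors' per-length scale. Nr4a3 (chromosome 5, 64713467 to 64753306), an orphan nuclear receptor induced by many stimuli, lay within an AngII region of 71.8 kb. It stood at 0.279 and 22.8 FPKM. Pdgfb (chromosome 7, 118244384 to 118262021), the B chain of platelet-derived growth factor and a smooth muscle mitogen, lay within an AngII region of 47.1 kb and stood at 2.28 and 32.8 FPKM. These 3 AngII regions each overlapped a control region that ended outside the locus, so a region present in control was longer after AngII. Upp1, uridine phosphorylase, and Atf3, a stress-induced transcription factor, instead lay under AngII regions of 19.2 and 39.5 kb that met no control region.

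Cover switched as fully at loci whose RNA hardly differed or was lower. Slc43a2, an amino acid transporter, stood at 2.83 and 1.41 FPKM, and its AngII region of 204 kb overlapped control regions on both sides of the locus. Cbx7, a Polycomb subunit whose locus lies beside Pdgfb, stood at 1.48 and 0.729 FPKM. Fam83d, a spindle protein, stood at 6.82 and 5.50 FPKM. The other 4 of the 12, Smco4, Mdfi, Hrob and Adprhl1, were between 0.455 and 1.37 FPKM in both libraries. When the 25% of regions with the lowest score were left out of each list, 6 of these 12 gains fell to 0: Atf3, Smco4, Fam83d, Upp1, Mdfi and Hrob. Atf3 was also at 0 without regions of a low second value per bin. Baiap2, Slc43a2, Nr4a3, Pdgfb, Cbx7 and Adprhl1 kept their 100 points under both.

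**Figure D1:**
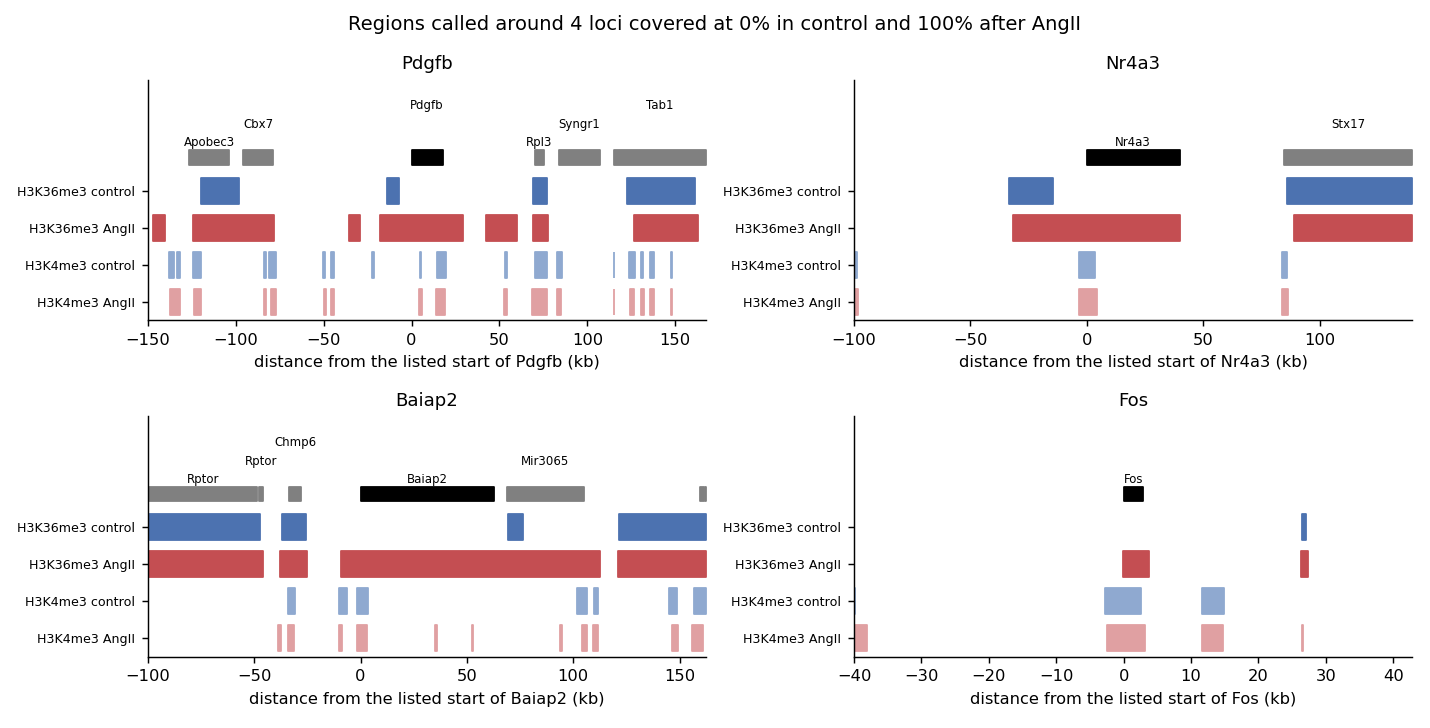
Regions called in each library around Pdgfb, Nr4a3, Baiap2 and Fos. The horizontal axis is the distance in kb from the listed start of the locus, the upper bars are listed loci (the named one in black) and the lower bars are regions of each ChIP-seq library; no control H3K36me3 region overlaps the named locus, and 1 AngII region spans it, while H3K4me3 regions are present at each in both conditions.

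The 8 loci of at least 5 kb with the largest losses were Vom2r63, Acyp2, Prl8a5, Eqtn, Tc2n, Cd244l1, Mgarp and Akr1c14. Their RNA was low, at no more than 3.33 FPKM in either library, and none was higher after AngII. With 1 FPKM added to each value, none was at least 2-fold lower. Before that addition Eqtn stood at 0.672 and 0.189 FPKM and Akr1c14 at 0.874 and 0.232 FPKM, both more than 2-fold lower. Vom2r63, Prl8a5 and Cd244l1 were at 0 FPKM in both. Acyp2, an acylphosphatase whose symbol matches 2 loci, went from 100% to 0% over 20.4 kb. Tc2n, the longest at 103 kb, went from 94.5% to 1.59%, but its control regions had a low second value per bin and without such regions its difference was 1.59 points. Cd244l1 went from 100% to 9.14%, and its difference was 0 without those regions. Without the lowest-scoring 25% the losses of Acyp2, Prl8a5 and Akr1c14 were also 0, that of Tc2n was 1.59 points and that of Cd244l1 was 9.14 points, both positive. Vom2r63, a vomeronasal receptor, and Akr1c14 belong to multigene families, and whether reads there were shared between copies was not tested.

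Gains were more frequent where RNA was higher. Of 278 loci with RNA at least 2-fold higher, on the log2(FPKM + 1) scale and expressed at 1 FPKM or more in at least 1 library, 67 gained cover, or 24.1% (exact Clopper-Pearson 95% interval 19.2 to 29.6). Of these 278 loci 1 lost cover. Their mean cover was 71.3% in control and 87.5% after AngII. Among 6385 other expressed loci 456 gained, or 7.14% (6.52 to 7.80), and 155 lost, or 2.43%. Among all 6887 expressed loci the shares were 7.9% and 2.44%. These intervals cover counting error only, and loci under 1 region are not independent. In bulk samples more cells with a mark and more of it per cell cannot be told apart.

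Of 224 loci whose RNA was at least 2-fold lower, 12 lost cover (5.36%, 2.80 to 9.17), against 2.43% of other expressed loci, and 21 gained it (9.38%, 5.90 to 14.0), against 7.14%. Their mean cover was 84.4% in control and 87.3% after AngII. With a pseudocount of 5 FPKM in the ratio, 44 loci had lower RNA and 2 of them gained (4.55%, 0.555 to 15.5). RNA was at least 2-fold higher at 4.04% of expressed loci and at least 2-fold lower at 3.25%.

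Gains were not confined to expressed loci. Of the 975 loci that gained, 431 (44.2%) were not expressed, close to the 44.3% of all 12367 loci, and 67 (6.87%) had higher RNA, against 2.25% of all loci. By control level, 4.75% of loci gained under 0.1 FPKM, 16.0% at 0.1 to 1, 17.3% at 1 to 5, 6.67% at 5 to 20 and 1.65% at 20 and more. Highly expressed loci were nearly full already, with a mean control cover of 96.5% at 20 FPKM and more. Counting only loci whose control cover left room for a gain of 20 points, 68.4% of 98 loci with higher RNA gained, 41.8% of 1092 other expressed loci, 42.9% of 49 with lower RNA and 9.23% of 4668 that were not expressed. Counting loci with at least 20% control cover, 0.459%, 2.61%, 5.94% and 7.19% lost, in the same order.

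Loci were also divided by the authors' FPKM bounds. Where those of both libraries lay apart, 58 of 189 loci with higher RNA gained cover (30.7%), and where the bounds overlapped 9 of 89 did (10.1%). Between 21.1% and 32.3% of loci with higher RNA gained in every length class from under 5 kb to 100 kb and more, against 5.87% to 8.93% of other expressed loci.

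Early response genes, which are transcribed soon after a stimulus without new protein synthesis, held 9 gains among 25 matched members, against 892 among all 11258 symbols (7.92%). Mean cover of the 25 was 58.4% in control and 87.7% after AngII. Members were short, with a median of 4.34 kb. Of these gains 6 went from 0% to 100%, at Nr4a3, Atf3, Egr2, Arc, Fos and Egr3. Egr2, a zinc finger factor with a locus of 4.29 kb (chromosome 20, 21883884 to 21888177), stood at 0.632 and 21.7 FPKM. Arc, known from neurons, where activity induces it, stood at 0.722 and 40.8 FPKM and lay in an AngII region of 29.0 kb over a locus of 3.44 kb.

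Fos, the AP-1 subunit, stood at 1.24 and 10.3 FPKM over 2.87 kb (chromosome 6, 109559134 to 109562001) and its AngII region was 3.84 kb wide. Fosl1, another AP-1 subunit, was covered over 55.6% of its locus in control and 100% after AngII, at 0.685 and 43.9 FPKM. The next 3 members were chosen with their values known. Egr3 stood at 0.135 and 14.4 FPKM. Dusp5, a MAP kinase phosphatase, went from 39.5% to 99.9% cover with 0.438 and 27.8 FPKM. Nr4a2 gained from 0% to 35.0% although its RNA stood at 1.88 and 1.66 FPKM. Without the lowest-scoring 25% the Nr4a2 difference was 0 and that of Dusp5 was 99.9 points.

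Some other early response genes were covered before stimulation. Of the 25 members 8 were at 100% in both libraries, a share near that of all symbols, 3401 of 11258. The 8 included Dusp6 at 35.3 and 153 FPKM and Btg2 at 40.7 and 120 FPKM, both chosen with their values known. Ptgs2, the inducible prostaglandin synthase, was at 100% in both as well, although its RNA stood at 3.89 and 86.1 FPKM. Dusp4 stayed at 0% in both with RNA at 0.323 and 3.39 FPKM, and Egr4 stayed at 0% with 0 and 0.330 FPKM. Klf2 was the 1 member that lost cover, from 97.3% to 73.8% of a locus of 1.95 kb. The listed interval of Egr1 holds 11 loci and spans 720 kb, so its own cover could not be read.

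Growth factors and cytokines held 5 gains and 1 loss among 28 members, against 7.92% and 1.88% of all symbols. Besides Pdgfb, the gains were Lif, an interleukin-6 family cytokine, from 52.5% to 90.6% with 0.795 and 6.12 FPKM, Il11, of the same family, from 56.1% to 87.6% with 0.465 and 0.623 FPKM, and 2 short loci chosen with their values known. Without the lowest 25% by the second value the Il11 difference was 87.6 points. The short loci were Gdf15, from 76.3% to 100%, and Ccn2, from 77.0% to 100%, and the RNA of both was lower after AngII, at 7.25 and 4.44 FPKM for Gdf15 and 7534 and 5977 FPKM for Ccn2. Pdgfc was the loss, from 68.7% to 17.8% of 175 kb, with RNA at 7.27 and 4.44 FPKM. Without the lowest-scoring 25% the Pdgfc difference was -5.49 points. The chemokine loci Ccl2, Ccl7 and Cxcl1, chosen with their values known, stayed at 0% although their RNA stood at no more than 0.923 FPKM in control and at 2.62 to 6.30 FPKM after AngII.

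Genes of angiotensin and G-protein signalling held 2 gains among 14, against 7.92% of all symbols. Arrb2, an arrestin that binds activated receptors, went from 0% to 63.3% with RNA at 0.153 and 0.192 FPKM. Rgs4, which shortens G-protein signals, went from 0% to 61.0% while its RNA stood at 19.2 and 5.92 FPKM. Agtr1a, the main AngII receptor, was covered at 100% in control and 99.2% after AngII, although its RNA stood at 99.2 and 30.1 FPKM.

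The smooth muscle genes were covered before stimulation and stayed so. Of 16 contractile genes 13 were at 100% in both libraries, including Tagln and Cnn1, against 3401 of all 11258 symbols. Des, desmin, was the 1 gain (6.25%, against 7.92% of all symbols), from 0% to 49.8% with 0.734 and 0.557 FPKM. Extracellular matrix genes held 1 gain and 1 loss among 27 (3.70% each), against 7.92% and 1.88% of all symbols. Fbln1, a fibulin, went from 0% to 40.2%, or a difference of 1.38 points without the lowest-scoring 25%, and Lum, the proteoglycan lumican, from 100% to 75.3% at 140 and 111 FPKM. Of 51 ribosomal protein genes 44 were at 100% in both, against 3401 of all 11258 symbols. They held 0 gains, against 7.92% of all symbols, and 1 loss (1.96%), near the 1.88% of all symbols. The loss was at Rpl32, whose listed locus is 1.13 kb long.

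Among genes listed as H3K36 enzymes and readers, the enzymes held 0 gains and 0 losses, against 7.92% and 1.88% of all symbols. The listed readers held 2 losses. Which listed members act on or bind the trimethylated form was not tested. The 4 matched methyltransferases, Smyd2, Nsd3, Ash1l and Nsd2, had cover of at least 99.4% in both libraries. Setd2, which lays down H3K36me3, was not analysed here. Among 5 genes listed as demethylases Kdm4d had the largest difference, from 8.70% to 26.4%, short of the threshold. Among 10 genes listed as readers mean cover was 89.0% in control and 76.8% after AngII, against 53.0% and 56.9% over all symbols. Their median cover was 100% and 98.8%, so the lower mean rests mainly on the losses named next. The 2 losses, against 1.88% of all symbols, were Morf4l2, from 100% to 0% over 0.752 kb, and Morf4l1, from 34.3% to 0% over 1.72 kb, both only a few bins long. The symbol Morf4l1 matches 3 loci, and only the locus with the highest FPKM is described here. The Morf4l1 difference was 0 with 1 bin trimmed from each end of a region, with regions of at least 3 bins and without the lowest 25% by the second value, and that of Morf4l2 was -33.9 points with 1 bin trimmed. Pwwp2b, a PWWP-domain protein, went from 82.6% to 100%, short of the threshold. Elongation factors held 0 gains and 0 losses among 16, against 7.92% and 1.88% of all symbols. Of 20 cell cycle genes Mcm3, a helicase subunit, gained from 57.7% to 85.1% and Aurkb, a mitotic kinase, lost from 100% to 69.8%. Each was 5% of the cell cycle list, against the same shares of all symbols. Without the lowest-scoring 25% the Mcm3 difference was 85.1 points. The Aurkb difference was 0 with gaps of up to 5 kb filled and 69.8 points, positive, without the lowest-scoring 25%. The symbol Aurkb matches 2 loci.

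Markers of other cell types differed by list, and 5 of 6 endothelial, 2 of 5 leukocyte, 4 of 6 Schwann cell and neuron and 0 of 6 adventitial fibroblast markers were at 0% in both libraries. Of all 11258 symbols 3515 were at 0% in both, a share near that of the leukocyte list. The endothelial Tie1 and Emcn were at 0 FPKM in both. Erg went from 15.1% to 51.0% at 2.21 and 2.12 FPKM, a difference of 35.9 points that was 13.6 without the lowest-scoring 25%. The leukocyte markers Ptprc and Cd3e were at 0% and 0 FPKM in both, and Cd14 was at 100% in both with 5.46 and 6.77 FPKM. Of the 5 leukocyte markers Cd74 and Csf1r gained, to 44.8% and 39.0%, against 7.92% of all symbols that gained, and the Csf1r difference was 3.76 points without the lowest-scoring 25%. The neuronal tubulin Tubb3 gained from 0% to 72.6%, and its difference was 0 without the lowest-scoring 25%. Among 6 adventitial fibroblast markers Dpep1 gained from 0% to 90.6% and Lum lost, while Pdgfra (95.3% and 97.2%) and Igfbp6 (100% in both) were covered in both libraries. The 6 matched smooth muscle markers held 5 at 100% in both, against 3401 of all 11258 symbols. Summed FPKM in control and after AngII was 2.93 and 2.58 for the endothelial list, 11.2 and 11.96 for leukocytes, 2.77 and 3.99 for Schwann cells and neurons and 183 and 144 for adventitial fibroblasts. Whether other cells contributed to these differences was not tested.

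Cover was also followed along the locus. The RNA table gives no strand, so the end with H3K4me3 within 1 kb, on that end only and in both conditions, was taken as the start for 5772 loci of at least 5 kb. In 166 such loci with higher RNA the first decile of the length was covered by 61.6% on average in control and 85.8% after AngII, and the last decile by 79.2% and 91.0%. The 5 kb before the start were covered by 22.2% and 41.9%. The difference was thus 24.2 points in the first decile and 11.8 points in the last. The first decile gained at least 20 points in 55 of the 166 loci (33.1%, 26.0 to 40.8), in 11.7% of other expressed loci and in 16.1% of those with lower RNA, against 12.2% of all 5772. In control, cover of these loci increased along the body from the first to the ninth decile, whereas after AngII every decile from the second on lay between 88.7% and 92.1%.

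In 4325 other expressed loci the difference was 1.37 points in the first decile and 5.65 points in the 5 kb after the end, where cover was 75.5% in control and 81.2% after AngII. The 143 loci with lower RNA had differences of 1.78 and 5.38 points at the same places. In 1138 loci that were not expressed the first decile was covered by 7.26% and 14.4%, and the difference lay between 6.05 and 7.12 points in every decile.

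**Figure D2:**
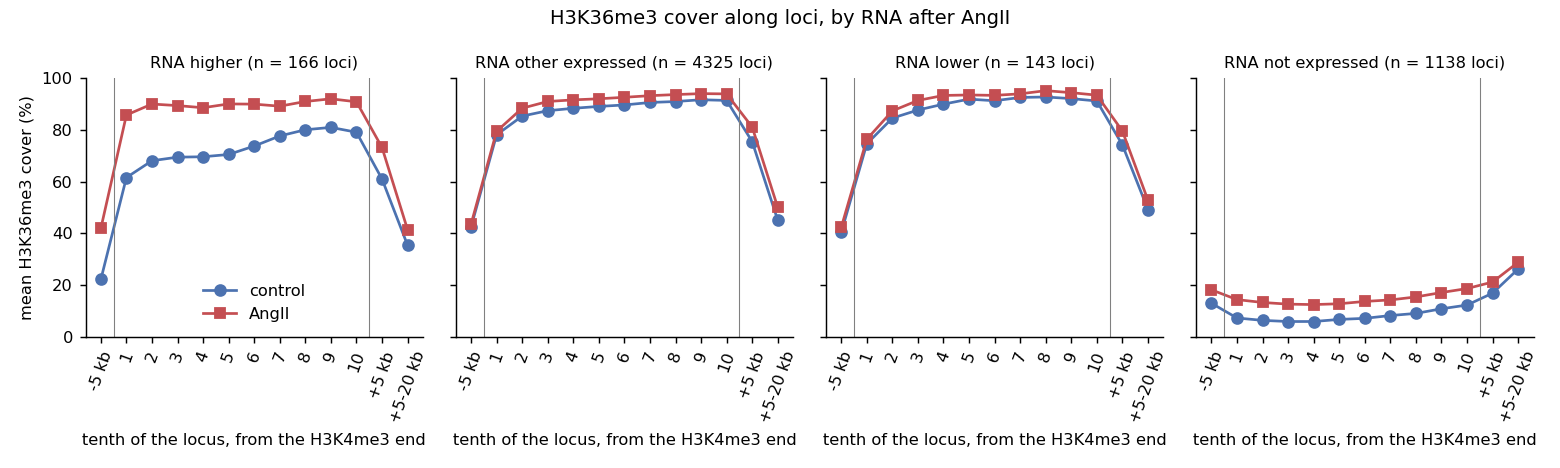
Mean percent of each decile of a locus, and of the flanks, that lies inside H3K36me3 regions, in control (blue circles) and after AngII (red squares), for 4 classes of RNA. The distance between the lines in loci with higher RNA is 24.2 points in the first decile and 11.8 in the last, and in other expressed loci 1.37 in the first.

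How a locus gained cover was read from the AngII region that held most of it. Of the 975 loci, under 895 such regions, 564 (57.8%) lay under a region that overlapped a control region inside the locus. At 172 a control region lay on 1 side of the locus, at 35 on both sides, and at 204 (20.9%) the AngII region met no control region. Losses divided likewise into 163, 37, 3 and 42. Regions without a partner at gained loci had a median width of 9.32 kb, and those with a partner inside the locus 55.3 kb.

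Across the genome the libraries covered similar totals. Control regions covered 578 Mb and AngII regions 588 Mb, of which 510 Mb were shared, 68.5 Mb were in control only and 78.3 Mb after AngII only. Loci with an accession held 75.5% of the control length and 76.9% of the AngII length. The median region was 11.8 kb (20 bins) in control and 12.6 kb (23 bins) after AngII. Regions of at least 100 kb numbered 1492 (8.56%) and 1584 (9.55%) and held 46.0% and 47.6% of the covered length. Regions of 1 bin numbered 782 and 753.

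Among 9834 pairs of regions that overlapped only each other, the AngII region was the wider in 51.9%, and the median ratio of widths was 1.004 (interquartile range 0.930 to 1.22). Of their edges 41.0% lay within 1 control bin of each other. Edges lay at least 5 kb further out after AngII in 9.02% and at least 5 kb further in in 6.35%.

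Fusion was more frequent than splitting. Of AngII regions, 1316 (7.94%, 7.53 to 8.36) overlapped 2 or more control regions, and of control regions 862 (4.95%, 4.63 to 5.28) overlapped 2 or more AngII regions. AngII regions bridged 1731 control gaps with a median of 7.07 kb, 17.2 Mb in all, and 72.3% of that gap length lay in loci with an accession. Control regions bridged 1062 AngII gaps with a median of 6.58 kb, 10.4 Mb in all, with 57.1% in such loci. Whole gaps inside a single locus numbered 1041 and 595. The smallest gap between regions of a list was 4 bins of 589 bp in control and 5 bins of 548 bp after AngII. With gaps of up to 5 kb filled in both lists, the shares that overlapped several were 7.89% after AngII and 4.04% in control. Without the lowest-scoring 25% of regions these shares were 5.23% after AngII and 2.98% in control. In the width class of 50 to 100 kb, 20.8% of AngII regions and 13.5% of control regions overlapped several regions of the other list.

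The AngII region with the most control regions under it lay over Ptprm, a receptor phosphatase, on chromosome 9 (105781214 to 106502929). It was 722 kb wide and overlapped 9 control regions. Tspan9, a tetraspanin, lay under a region of 186 kb on chromosome 4 over 8 control regions, and Dym under one of 271 kb on chromosome 18 over 7. One over 7 on chromosome 10, of 282 kb, held none of the loci used. In the other direction, 1 control region of 653 kb on chromosome 7 (68277986 to 68930597), over the loci of Cpq, a carboxypeptidase, and Sdc2, a syndecan, overlapped 9 AngII regions. Control regions over 6 AngII regions lay at Zbtb20, at Zfp347 and Zfp709l1, and on chromosome 15 where none of the loci used lies.

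The few widest regions had low second values per bin. The 4 widest control regions, of 899 to 952 kb, and the 4 widest AngII regions, of 761 to 899 kb, had a second value of 0.109 to 0.666 per bin, where 1 is the highest found. The median over all regions was 0.899 in control and 0.910 after AngII. Over the 100 widest regions of each list it was 0.891 and 0.909, so wide regions in general did not differ in this value. Of these 8 regions, 4 held none of the loci used. One on chromosome 3 was of nearly the same extent in both lists, and another in control held the vomeronasal receptors Vom2r2, Vom2r3 and Vom2r4. Regions under 0.5 per bin made up 8.40% of the covered length in control and 6.39% after AngII.

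Regions with no partner numbered 3874 in control (22.2%) and 3696 after AngII (22.3%). They were narrow, with medians of 4.71 and 3.84 kb, and held 26.8 and 21.2 Mb. At widths of 100 to 200 kb 0.446% of control and 0.0849% of AngII regions had none.

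**Figure D3:**
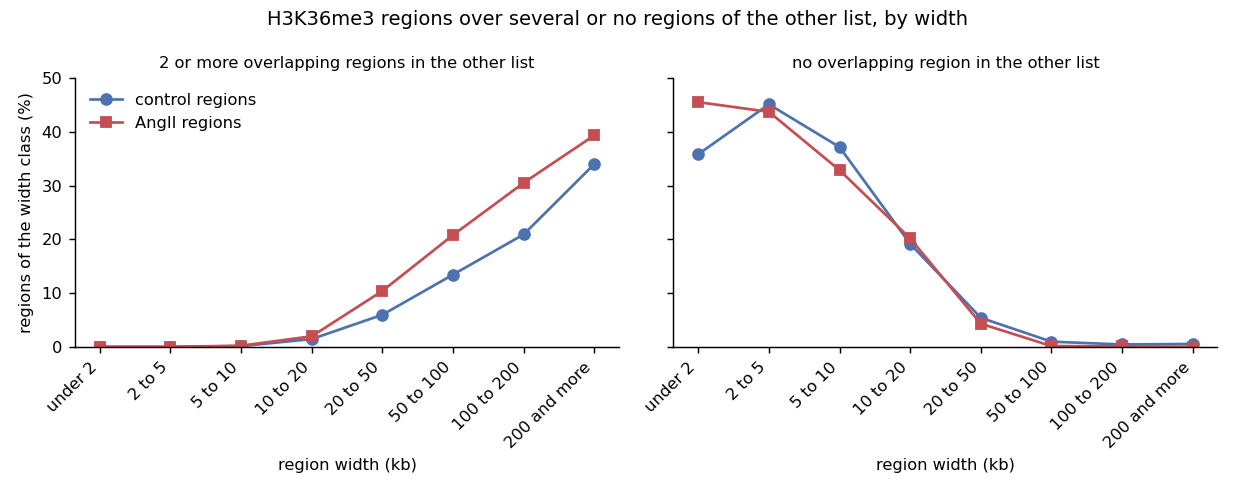
Percent of regions in each width class (kb) that overlap 2 or more regions of the other list (left) or none (right), for control regions (blue circles) and AngII regions (red squares). From 20 kb upward a larger share of AngII regions than of control regions spans several regions, 39.4% against 34.1% at 200 kb and more.

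Chromosomes differed. The covered length after AngII was 0.872 times that in control on chromosome X, 0.931 times on 15, 0.949 times on 2 and 0.957 times on 17, and 1.10 times on 19, 1.12 times on 10 and 1.14 times on 12. Gains were most frequent on chromosome 20 (11.9% of loci, 8.38 to 16.2) and chromosome 10 (11.6%, 9.70 to 13.8). They were least frequent on chromosome 18 (3.31%, 1.52 to 6.19) and chromosome 14 (3.51%, 1.98 to 5.73). Losses were most frequent on chromosome 17 (4.59%, 2.74 to 7.16) and X (4.52%, 2.79 to 6.90), and least on 19 (0.610%, 0.0739 to 2.19).

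The order of the chromosomes moved with base composition. Over the 21 chromosomes, which share their 2 libraries, the ratio of covered lengths had a Spearman rho of 0.608 and a Pearson r of 0.672 with the median GC content of the chromosome's promoters, which ran from 54.3% on X to 62.0% on 20. At loci, promoter GC had a median of 61.0% where cover was gained, 56.3% where it was lost and 58.7% elsewhere, over the 9923 loci (80.2%) with a sequence. Gains were 4.23%, 8.23%, 9.65% and 9.81% of loci from the lowest to the highest quartile of promoter GC, and losses 2.90%, 1.64%, 1.71% and 1.53%. Within the same quartiles 18.2%, 20%, 20.3% and 32.2% of loci with higher RNA gained, against 5%, 6.31%, 7.58% and 7.80% of other expressed loci. The part of GC content in the chromosome differences was not tested.

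**Figure D4:**
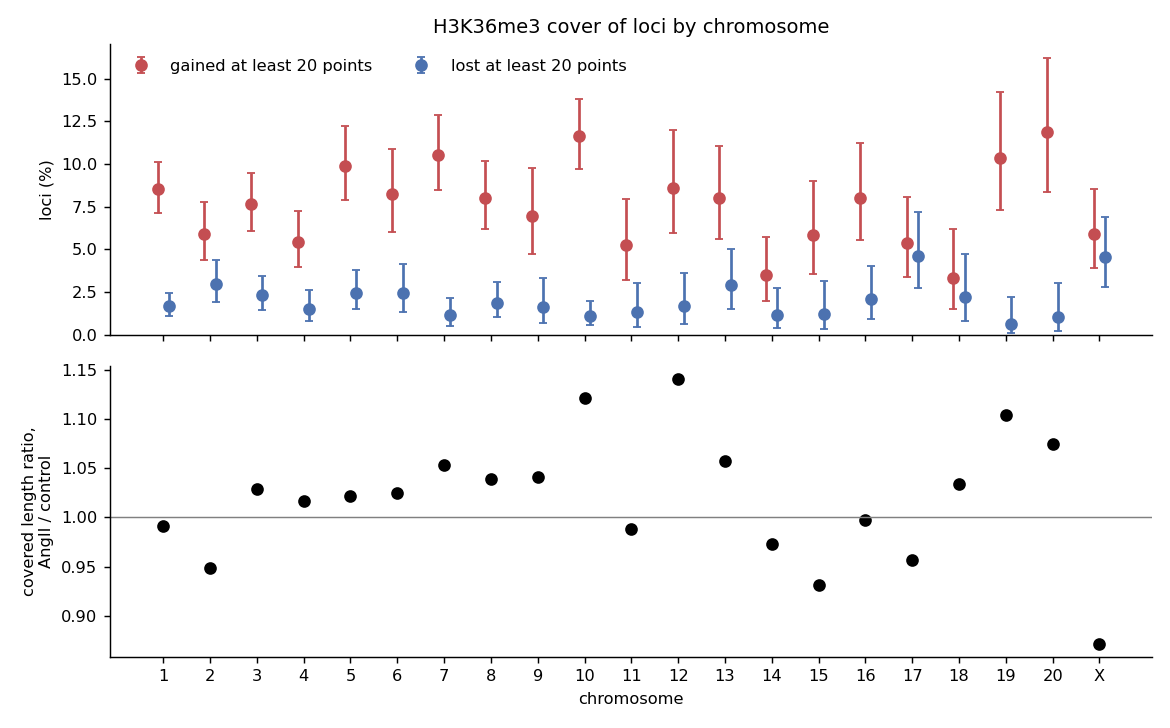
Upper panel: percent of loci on each chromosome that gained (red) or lost (blue) at least 20 points of H3K36me3 cover, with exact 95% intervals for counting error. Lower panel: ratio of the covered length after AngII to that in control; chromosome X lies lowest at 0.872 and chromosome 12 highest at 1.14.

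By locus length, gains were 7.72% of loci under 5 kb, 9.85% at 5 to 10 kb, 9.51% at 10 to 20 kb, 7.25% at 20 to 50 kb, 5.94% at 50 to 100 kb and 6.78% at 100 kb and more. Losses were 2.50%, 1.52%, 1.87%, 1.53%, 1.77% and 2.37% in the same classes. H3K4me3 lay on the locus or within 1 kb of it for 81.4% of gained loci in control already, against 64.9% of lost loci and 66.2% of the rest, and after AngII for 80.8%, 65.3% and 66.2%.

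The score, the first of 2 values that the authors give each region, was compared only as a rank within its list. The 6872 loci covered by at least 50% in both libraries were ranked among themselves, from 0 to 100, by the scores of their regions. Ranks moved up by at least 20 percentile points at 18.7% of loci and down at 18.9%, and the Spearman rho between the libraries was 0.661 across loci, which share regions and are not independent. Among 203 loci with higher RNA 86 moved up (42.4%) and 6 down (2.96%), and their median rank was 50.4 in control and 74.96 after AngII. Among 187 with lower RNA 24 moved up (12.8%) and 56 down (29.9%), with medians of 48.9 and 37.9. Unlike cover, the rank was thus down more often than up at loci with lower RNA.

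The largest single move up was at Acan. Acan, which encodes the proteoglycan aggrecan, moved from rank 1.66 to 97.1 with RNA at 20.5 and 131 FPKM, and Nfil3, a circadian transcription factor, from 1.92 to 96.7 with 0.522 and 8.48 FPKM. The symbol Acan matches 2 loci. Lrfn1 and Adamtsl5 moved up by 91.1 and 84.1 points with RNA that was slightly lower after AngII, and their regions were 14.1 and 10.01 kb wide in control and 133 and 121 kb after AngII. Vom2r4, Vom2r3, Ccdc163 and Abhd10 had the largest moves down, of -87.1, -87.1, -81.0 and -78.5 points. The pair of vomeronasal receptors shared 1 control region of 912 kb and 1 AngII region of 184 kb.

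Agtr1a moved from rank 79.8 to 30.2, and Cnn1, calponin, from 29.1 to 89.2 with RNA at 228 and 315 FPKM. Ptgs2 moved from 56.7 to 72.8. Tagln (86.7 and 89.0), Gapdh (89.7 and 95.02) and Col1a1 (99.5 and 91.8) were high in both libraries. By chromosome the median difference ran from -6.81 points on chromosome 2 and -6.06 on 6 to 11.7 on 20 and 11.8 on 12. By length it was 4.53 points at 5 to 10 kb and -4.45 at 50 to 100 kb.

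**Figure D5:**
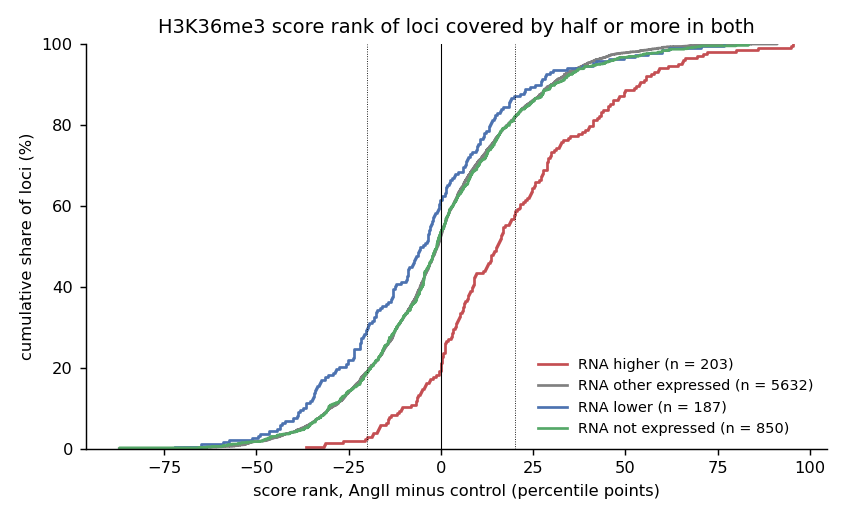
Cumulative share of loci by the difference in score rank, AngII minus control, in percentile points, for 4 classes of RNA; dotted lines mark 20 points in either direction. The curve of loci with higher RNA lies to the right, with 42.4% past 20 points up, and that of loci with lower RNA to the left, with 29.9% past 20 points down.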

How the data were processed

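Regions, FPKM values and their bounds were used as the authors deposited them. Per the submitters' processing notes, the tools were Bowtie, TopHat, Cufflinks and Cuffdiff on rn4 (no versions), and the region caller, sequencing depth and any input subtraction are not given in the sources used here. Each region has 2 deposited score values of unstated meaning; the first ("score") was used for ranks and for leaving out regions, and the second, which grows with width, only per bin. The deposited RNA tables of both conditions were identical, and that table holds both. Symbols came from a RefSeq table (GRCr8, names only): 16252 of 20869 accession-bearing loci matched, 16025 to exactly 1 symbol. Loci without an OK status or sharing coordinates were left out.

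Cover, overlaps (at least 1 bp) and ranks were computed with Python 3.11.15, numpy 2.4.6, pandas 2.3.3 and scipy 1.17.1, and the code was tested on simulated lists with known differences. With 1 library a side the text gives counts past fixed sizes, 20 points of cover or rank and a 2-fold ratio of FPKM + 1. Named genes are the 12 largest gains and 8 largest losses of loci of at least 5 kb (longer first among ties), up to 4 members with the largest difference from each of 20 gene lists, the 4 largest rank moves each way, fixed reference genes, and the widest, most split and most fused regions. In a list, the locus with the highest FPKM stood for its symbol. Members, lists and motifs were chosen with earlier results of these data known. The promoter GC classes, the classes of how cover was gained, the FPKM bounds split and the second value per bin were added after the data were seen.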

Additional observations from a re-analysis of the deposited data

How the results depend on the processing

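No paired analysis was possible because each condition holds 1 library, and for the same reason no library could be left out. Of 161 recomputed values for 14 comparison results, 112 stayed within their counting interval and 49 moved. Values that an alternative left unchanged were not counted, and reversal was not scored for these shares and widths. The order of gains at loci with lower RNA and at other expressed loci did change under alternatives given below. Loci at least 50% covered were 56.6% in control and 60.5% after AngII, and gains exceeded losses, fusions exceeded splits, and gains were more frequent with higher RNA than at other expressed loci under every alternative run.

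Without the lowest-scoring 25% of regions, loci at least 50% covered were 52.4% and 56.7%, losses 2.51%, the control median width 10.6 kb, splits 2.98%, fusions 5.23% and gains at other expressed loci 8.83%. With 1 bin trimmed from each end these were 55.4% and 59.3%, 2.31%, 13.5 kb (15.3 kb after AngII), 5.32%, 8.67% and 8.30%, with gains of 8.64%. With gaps of up to 5 kb filled splits were 4.04%. With regions of at least 3 bins widths were 14.7 and 16.4 kb, splits 5.43% and fusions 8.77%. The planned exclusion was first computed on the second value and then on the score, which gives the ranks; by the second value, kept as an added alternative, they were 20.6 and 23.0 kb, 5.92% and 9.26%. Requiring an overlap of 50% of the smaller region gave splits of 4.10% and fusions of 7.13%.

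Loci at least 50% covered were 57.8% and 61.5% over all distinct intervals with an accession (losses 2.64%, and gains at 7.32% of loci with lower RNA, below 7.54% of other expressed loci), 59.2% and 62.8% for loci of at least 5 kb, and 57.6% and 61.5% on autosomes. At a threshold of 10 points gains were 11.4%, losses 3.62% and gains at other expressed loci 11.4%. At 50 points these were 3.93%, 0.631% and 2.90%, with 14.4% at loci with higher RNA, 5.36% with lower RNA and 24.1% for the first decile of loci with higher RNA, which was 33.1% as reported. A pseudocount of 0.1 put 22.9% and one of 5 put 43.6% of loci with lower RNA at least 20 rank points down, the latter with gains at 4.55%, below the 7.59% of other expressed loci. A minimum of 5 FPKM gave gains of 4.32% at other expressed loci. With FPKM bounds apart, chosen after seeing the data, gains were 30.7%, and 41.8% in the first decile. The causes of these shifts were not tested.

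Of the 975 gains 711 remained without the lowest-scoring 25% of regions, as did 56 of the 67 with higher RNA and 154 of the 245 losses. For 56 loci (the 20 largest differences, reference genes and list members past the threshold) 448 values were recomputed: 415 stayed on the same side of the threshold and within a binomial tolerance set by the number of bins in the locus, which is wide for short loci, 29 moved, and 4 reversed, all 4 at losses: Aurkb to 69.8, Cd244l1 to 9.14 and Tc2n to 1.59 points without the lowest-scoring 25%, and Tc2n to 1.59 without regions under 0.5 per bin. Values that an alternative left unchanged are counted among the 415, unlike in the comparison results above. They include every value with gaps of up to 1 bin filled. That alternative could change nothing, because the smallest gap was 4 bins in control and 5 bins after AngII. The 415 therefore overstate how many values were put to a test. Region depth is unknown, so a locus without a region is one without a call, and what weaker signal it holds could not be read.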
